A study of Mus musculus with 2 samples.

Results

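Macrophages with abundant Mmp12 transcripts were examined in single-cell RNA-seq data from the inflamed temporomandibular joint (TMJ, the jaw joint) of mice. A cell was counted as an Mmp12-high macrophage when its barcode had at least 500 detected genes, under 10% of its unique molecular identifiers (UMIs, tags that count captured RNA molecules) on mitochondrial genes, at least 10 UMIs of Mmp12, and at least 1 UMI each of Csf1r, the receptor for the macrophage growth factor M-CSF, and Cd68, a lysosomal glycoprotein of macrophages. By this rule there were 384 Mmp12-high macrophages among 10109 kept cells, with 218 of 4352 in the WT library and 166 of 5757 in the Prox1 mutant library. The UMIs of Mmp12, Csf1r and Cd68 chose the cells, so the levels of these genes describe the selection and are not findings.

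The study used Prox1 mutant mice, given as heterozygotes (Prox1+/-) in its methods, as a lymphatic loss-of-function model, and asked how lymphatic dysfunction alters TMJ arthritis. Both groups were C57BL/6 mice aged 8 to 10 weeks, and in both, the joint had been injected with complete Freund's adjuvant (CFA, an oil emulsion with killed mycobacteria that induces arthritis). By the labels, the WT group carried no named allele and the mutant group differed from it by the Prox1 genotype. Whether the groups also differed in ways that the labels do not name was not tested. Each group was 1 library of whole digested joint tissue, with 53517206 UMIs on 5709 barcodes for WT and 62446987 UMIs on 7846 barcodes for the mutant. With 1 library per group, genotype and library cannot be told apart, no test was made, and every interval below is a 95% interval for counting error only. No uninjected joint was analysed here, so nothing below bears on the effect of CFA.

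Mmp12 encodes macrophage metalloelastase, a secreted protease that degrades elastin and other matrix proteins, and it is induced when monocytes mature into macrophages at sites of inflammation. Macrophages of an inflamed joint come from local tissue-resident cells and from recruited blood monocytes, and they release cytokines, chemokines and proteases, clear debris, or fuse into multinucleated cells. Of the other genes used as markers of these cells, Spp1 encodes the matrix protein osteopontin, Cxcl3 a chemokine that draws neutrophils, Dcstamp a membrane protein needed for macrophage and osteoclast fusion, and Itgax the integrin CD11c.

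The genes that mark the cells lie on several chromosomes, Spp1 and Cxcl3 on the same one, and their start regions are shown so that the motifs named here can be seen in place. RefSeq windows (build GRCm38.p6) of 300 bases, from 250 before a transcription start to 50 after it, were found for 4 of the 5 marker genes, and there was no entry for Dcstamp. All 6 windows are on the plus strand, and capitals mark a match on either strand to TGANTCA (AP-1), GGNNTTTCC (NF-kB) or GAGGAA (ETS core, read as TTCCTC on the opposite strand).
Mmp12 start 1, chr9:7344147-7344446: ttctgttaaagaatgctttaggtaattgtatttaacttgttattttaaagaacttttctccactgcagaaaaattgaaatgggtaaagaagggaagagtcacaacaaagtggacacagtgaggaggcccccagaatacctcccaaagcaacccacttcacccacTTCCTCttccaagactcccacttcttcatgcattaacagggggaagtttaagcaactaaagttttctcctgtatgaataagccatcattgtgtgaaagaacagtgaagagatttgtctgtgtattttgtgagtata
Mmp12 start 2, chr9:7347124-7347423: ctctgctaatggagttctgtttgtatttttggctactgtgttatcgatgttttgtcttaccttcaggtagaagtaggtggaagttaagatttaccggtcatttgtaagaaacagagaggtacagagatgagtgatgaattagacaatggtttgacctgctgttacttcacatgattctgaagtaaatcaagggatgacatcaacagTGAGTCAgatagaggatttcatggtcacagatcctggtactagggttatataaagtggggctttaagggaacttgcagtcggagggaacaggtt
Spp1 start 1, chr5:104434861-104435160: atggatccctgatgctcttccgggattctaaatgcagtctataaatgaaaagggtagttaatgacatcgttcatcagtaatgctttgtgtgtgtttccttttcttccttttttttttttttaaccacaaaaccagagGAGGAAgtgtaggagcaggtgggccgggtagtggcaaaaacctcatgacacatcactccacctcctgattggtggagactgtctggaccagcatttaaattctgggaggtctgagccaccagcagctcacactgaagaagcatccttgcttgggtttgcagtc
Cxcl3, chr5:90785851-90786150: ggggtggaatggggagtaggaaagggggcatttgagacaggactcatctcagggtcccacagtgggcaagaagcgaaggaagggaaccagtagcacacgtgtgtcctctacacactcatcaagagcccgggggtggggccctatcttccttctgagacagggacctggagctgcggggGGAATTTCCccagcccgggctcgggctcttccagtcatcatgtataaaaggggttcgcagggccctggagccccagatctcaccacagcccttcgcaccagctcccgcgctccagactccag
Itgax, chr7:128129300-128129599: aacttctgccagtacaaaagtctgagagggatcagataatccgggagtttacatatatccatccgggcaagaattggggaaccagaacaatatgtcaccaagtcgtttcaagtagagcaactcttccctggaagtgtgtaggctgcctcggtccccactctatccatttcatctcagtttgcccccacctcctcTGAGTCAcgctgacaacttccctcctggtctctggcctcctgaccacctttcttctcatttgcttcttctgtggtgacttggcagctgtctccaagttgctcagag
An AP-1 match lay 44 to 38 bases before the second Mmp12 start and 56 to 50 bases before the Itgax start. An NF-kB match lay 72 to 64 bases before the Cxcl3 start. An ETS match lay 86 to 81 bases before the first Mmp12 start and 113 to 108 bases before the first Spp1 start, and the second Spp1 window held none of the motifs. The same letters occurred in 7.81% (AP-1), 5.82% (NF-kB) and 28.3% (ETS) of the 32851 mouse windows searched. A match is a description of the sequence, not evidence that a factor binds there.

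Mmp12 was present at widely different levels among macrophages of the joint. Of the cells with Csf1r and Cd68, 656 in WT and 803 in the mutant, 320 and 461 had no Mmp12 UMI, 19 and 27 had 5 to 9, 12 and 26 had 10 to 14, 58 and 22 had 200 to 499, and 6 and 7 had at least 500. Within Mmp12-high macrophages the WT cells had 10 to 629 Mmp12 UMIs (median 97) and the mutant cells 10 to 1095 (median 61.5). These cells were also deeply sampled, with a median of 34812 UMIs and 5245 genes per cell in WT and 31993 UMIs and 5233 genes in the mutant, against 15164 and 14890 UMIs in the Mmp12-low macrophages that serve as the comparison below (438 and 637 cells with Csf1r and Cd68 but under 10 Mmp12 UMIs). A fixed UMI minimum admits deep cells more readily, and the shares after thinning every cell to 1 depth are therefore given with the shares of cells.

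**Figure D1:**
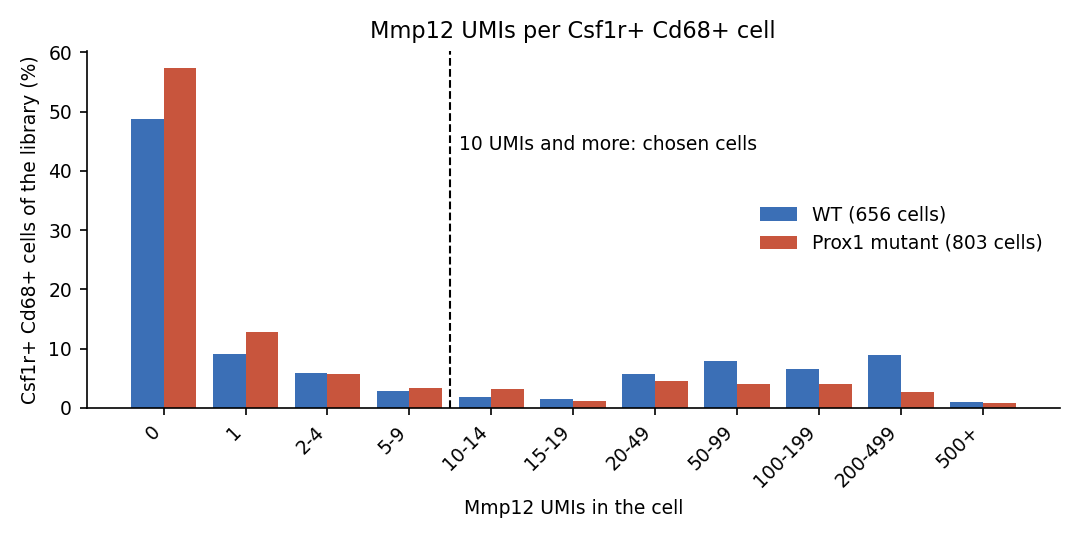
Percent of cells with Csf1r and Cd68 (y axis) in each range of Mmp12 UMIs per cell (x axis), for WT (656 cells) and Prox1 mutant (803 cells). The dashed line marks the 10 UMIs of the rule, and cells without an Mmp12 UMI make up the tallest bar in both libraries (320 and 461 cells).

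Mmp12-high macrophages took 5.01% of kept WT cells (Clopper-Pearson interval 4.38–5.70%) and 2.88% of kept mutant cells (2.47–3.35%), a difference of -2.13 percentage points in the mutant (Newcombe interval -2.92 to -1.36). As a share of cells with Csf1r and Cd68 they were 33.2% in WT and 20.7% in the mutant, a difference of -12.6 points (-17.1 to -7.99). The mutant share was the lower in all 9 other settings. With every cell thinned to 5000 UMIs and at least 2 Mmp12 UMIs asked for, the shares were 8.41% and 6.42% (difference -1.98 points, -3.38 to -0.60). No barcode of an Mmp12-high macrophage was shared between the libraries, which had 10 barcodes in common in all.

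The cells next to the threshold on either side were alike in some markers and not in others. In WT, cells with 5 to 9 and with 10 to 14 Mmp12 UMIs had 814 and 1584 CPM (UMIs per 1000000 UMIs of the summed cells, a unit used throughout) of Spp1, 365 and 538 of Dcstamp, and 173 and 171 of Itgax. In the mutant the same ranges had 1508 and 480 CPM of Spp1, 175 and 273 of Dcstamp, and 127 and 117 of Itgax. Spp1 was thus higher just inside the threshold in WT and just outside it in the mutant.

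The label was checked on macrophage genes and on the 5 markers. Lyz2 (lysozyme) stood at 30175 CPM in WT and 17174 in the mutant and Mertk, an engulfment receptor, at 388 and 306, against 263 and 700 CPM of Lyz2 and 5.57 and 16.0 of Mertk in B cells of the same libraries, which should lack them. Fcgr1 (CD64) and Adgre1 (F4/80), which also mark macrophages, were present at 31.0 and 35.8 CPM and at 71.5 and 135 CPM, but lower than in Mmp12-low macrophages (122 and 137, and 184 and 342). Mmp12 divided the Mmp12-high from the Mmp12-low macrophages, so its difference between them was set by the rule. The 4 other markers were more than 5-fold higher in Mmp12-high macrophages of both libraries, which is a description, since markers and cells were chosen on these data. The word inflammatory in the label was borne out less evenly, since of the cytokines Il1b, Tnf and Il6 were lower than in Mmp12-low macrophages in both libraries while Il1a and Nos2 were higher, and the cells are therefore called here by Mmp12 alone.

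Spp1 was the marker whose level differed most between the libraries. It was 5605 CPM in WT (Poisson interval 5553–5657) and 3067 CPM in the mutant (3024–3111), a log2 difference of -0.87 (conditional binomial interval -0.89 to -0.85). In Mmp12-low macrophages it was 453 and 412 CPM. It was also lower in the mutant in neutrophil-type cells (84.7 and 32.8 CPM) and in B cells (51.3 and 17.2 CPM), and it was higher there in Folr2-positive macrophages (209 and 1595 CPM).

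Single cells varied far more than the libraries did. The median WT cell had 2369 CPM of Spp1 (quartiles 562 and 6609) and the median mutant cell 609 CPM (81.4 and 2144), so the cells of the libraries overlapped broadly. A Spp1 UMI was seen in 97.7% of WT and 86.1% of mutant cells, and in 32.1% and 15.3% of B cells, which had medians of 5219 and 6857 UMIs. After thinning to 5000 UMIs the shares were 90.3% and 72.4%, with 21.8% and 5.56% of thinned B cells. The mutant cell with the most Spp1 held 11.2% of the Spp1 UMIs of its library's cells, and the WT cell with the most 3.69%.

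The remaining markers differed less between libraries. Dcstamp was 577 CPM in WT and 476 in the mutant, against 73.5 and 78.7 in Mmp12-low macrophages and 0 and 16.0 in B cells, and a UMI was seen in 83.0% and 77.7% of the cells. Itgax was 313 and 264 CPM, against 45.7 and 47.2, and was seen in 96.8% and 85.5%. Cxcl3 was 297 and 201 CPM, against 46.5 and 30.6, but was concentrated in fewer cells, with a UMI in 49.1% and 41.0%. Mmp12 itself, which chose the cells, was 3909 and 3447 CPM, against 35.8 and 34.6 in the Mmp12-low cells and 12.3 and 30.8 in B cells. Summed over cells, all 5 markers were lower in the mutant library, by 0.18 to 0.87 on the log2 scale and none past 2-fold. The median cell differed more in Spp1, at 2369 CPM in WT and 609 in the mutant.

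**Figure D2:**
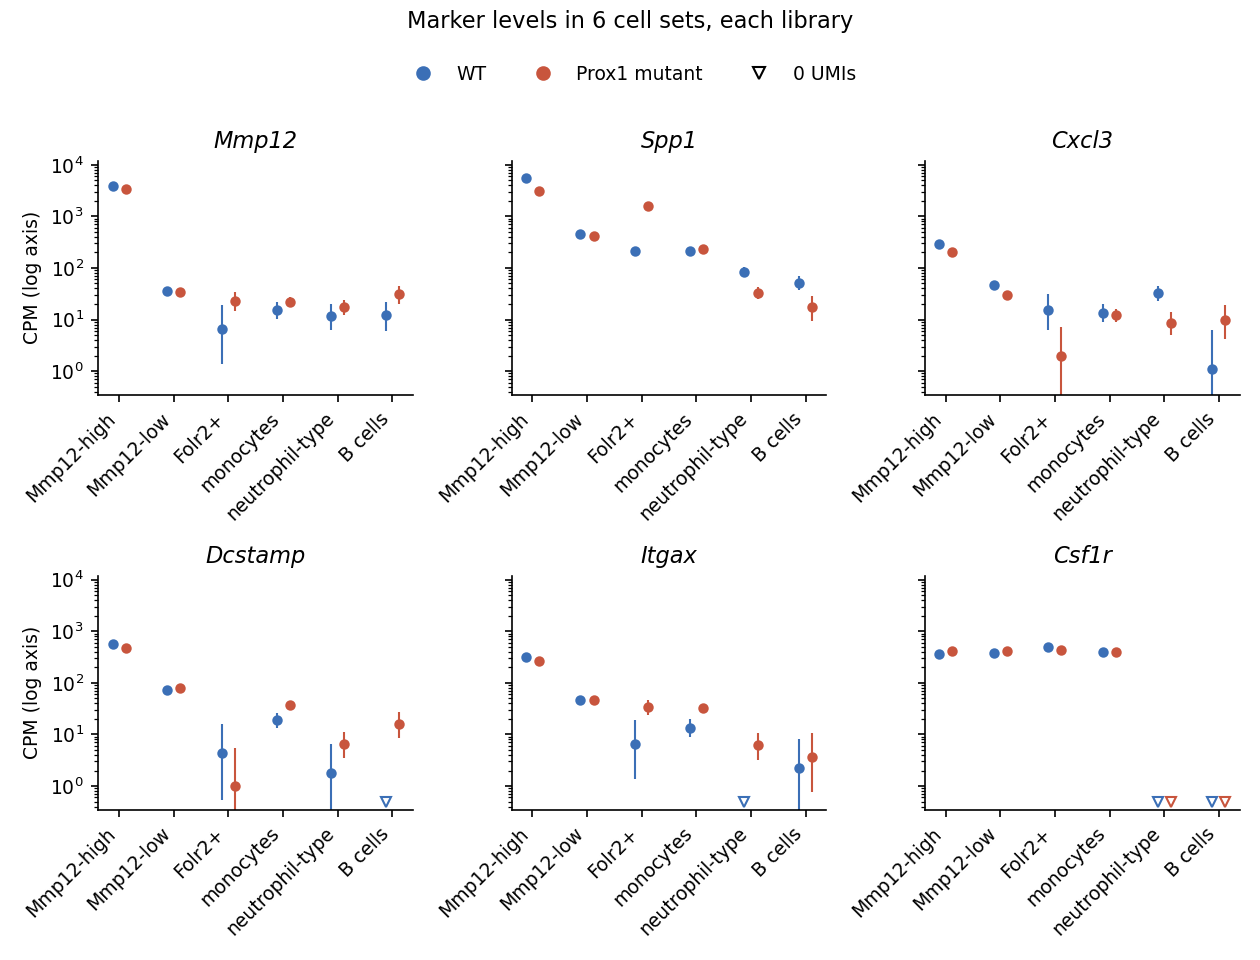
Levels of the 5 markers and of the rule gene Csf1r in CPM (log axis). Mmp12-high macrophages and 5 other sets of cells of each library are shown, with 95% Poisson bars for counting error. An open triangle marks a set with 0 UMIs. Csf1r was 366 CPM in WT and 417 in mutant Mmp12-high macrophages, against 385 and 410 in Mmp12-low ones. Mmp12-high macrophages sit above Mmp12-low macrophages for every marker in both libraries, for example 577 against 73.5 CPM of Dcstamp in WT.

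The rest of the transcriptome was set against Mmp12-low macrophages of the same library as a description with no test, because Mmp12 divided these cells. Of 9312 genes with at least 200 UMIs over the 4 summed sets, 211 (2.27%) were at least 2-fold higher in Mmp12-high macrophages in both libraries and 616 (6.62%) at least 2-fold lower. Genes called higher were 25.5% of all calls. The median gene was at -0.31 (WT) and -0.18 (mutant) on the log2 scale, and TMM factors moved these medians to 0.03 and 0.04 and the calls to 322 higher and 417 lower (43.6% higher). List medians below are therefore to be read against -0.31 and -0.18.

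**Figure D3:**
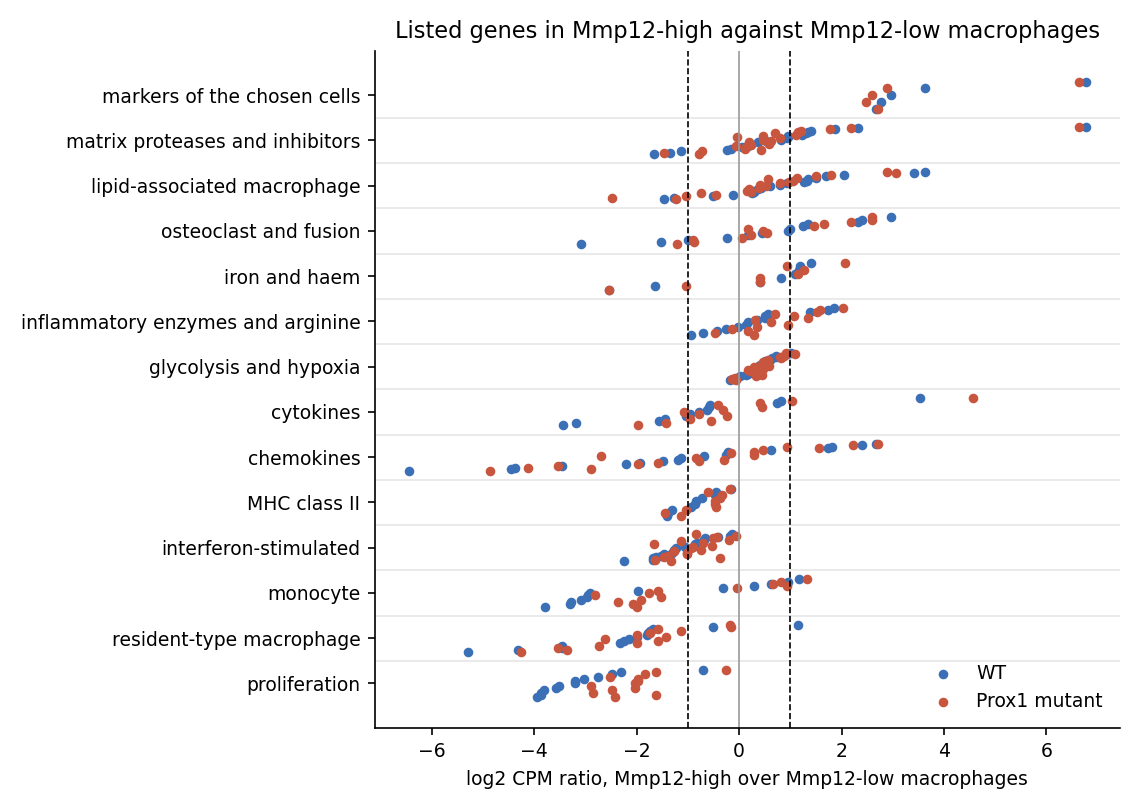
Log2 ratio of Mmp12-high over Mmp12-low macrophages (x axis) for the tested genes of 14 lists, 1 point per gene and library, with dashed lines at 2-fold. Genes of proliferation, monocytes and resident-type macrophages lie mostly left of the lower line (12 of 13, 8 of 13 and 12 of 14 past it in both libraries). No gene of glycolysis and hypoxia is past a line in both libraries, though Slc2a1 in the mutant and Egln3 in WT lie past the upper one.

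The genes that led the contrast, ranked by the smaller ratio of the libraries, were partly markers already described and partly genes of other functions. Lpl, the lipase that releases fatty acids from lipoproteins, was 1132 CPM in WT Mmp12-high macrophages against 106 in Mmp12-low ones, and 1382 against 165 in the mutant. Prdx1, a peroxiredoxin that removes hydrogen peroxide, was 12924 against 1952 CPM in WT and 10060 against 1527 in the mutant, so its log2 ratio was 2.73 and 2.72. H2-M2, a non-classical MHC class I gene, was 839 against 97.4 CPM and 370 against 43.0, with a log2 ratio of 3.11 in each library although its level was lower in the mutant. Tnfsf15, which encodes the cytokine TL1A, was 71.7 against 6.19 CPM and 58.4 against 2.45.

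Several of the leading genes were scarce. Uchl1, a deubiquitinase best known from neurons, ranked first with 23.0 against 0.849 CPM in WT and 22.4 against 0.929 in the mutant, while B cells held 489 CPM of it in WT and 12.3 in the mutant. Mt3, a metallothionein, had 1 UMI in the WT Mmp12-low cells (16.5 against 0.121 CPM, log2 7.09, interval 4.59 to 12.4) and 21 in the mutant ones (21.6 against 1.77 CPM, log2 3.61, interval 2.94 to 4.35). Csta2, a cystatin-type inhibitor of cysteine proteases, was 38.9 against 4.37 CPM and 58.4 against 1.35, and Ksr2, a scaffold of the Ras-MAPK cascade, 149 against 25.4 and 83.2 against 9.29. Klrb1a, Trim29, Slc6a12 and Sdcbp2 were between 8.45 and 26.4 CPM in Mmp12-high macrophages of both libraries and below 5 CPM in Mmp12-low ones.

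The 15 genes lowest in Mmp12-high macrophages included several chemokines. Cxcl13, the B cell chemokine, had 1 UMI in the WT and none in the mutant Mmp12-high macrophages, against 16.6 and 41.8 CPM in Mmp12-low ones. Ccl12 was 0.617 CPM against 53.9 in WT and 2.11 against 61.5 in the mutant. Ccl7, Ccl8 and Ccl2, which with Ccl12 draw monocytes, were 7.04, 17.9 and 3.58 CPM in WT against 145, 197 and 78.9. Mrc1 (the mannose receptor CD206) was 8.76 against 176 CPM in WT and 16.3 against 166 in the mutant, and Ube2c, an enzyme of mitotic exit, 7.41 against 85.0 and 8.78 against 65.4. Cbr2, Clec10a, Hemgn, Pbk, Knstrn, Aspm, Lbp and Ccnb1 completed the 15 lowest genes.

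Among matrix proteases and their inhibitors, 6 of 22 tested genes were past 2-fold higher in both libraries and 1 was past 2-fold lower, with list medians of 0.67 and 0.48. The 6 were Mmp12, the collagenase Mmp13, Mmp19, the sheddase Adam8 and the lysosomal proteases Ctsd and Ctsk, the latter the main collagen-degrading cathepsin of osteoclasts. Mmp19 was 329 CPM in WT against 89.9 and 281 in the mutant against 82.2. Ctsk was 94.6 against 18.8 and 111 against 24.4. Mmp13 was scarce, at 11.2 against 4.25 CPM in WT and 30.4 against 13.2 in the mutant, with a UMI in 10.6% and 9.04% of Mmp12-high macrophages, and 1 mutant cell held 35.3% of the mutant UMIs. The membrane-anchored collagenase activator Mmp14, by contrast, was seen in 98.6% and 97.0% of the cells at 204 and 268 CPM, close to the 180 and 229 CPM of Mmp12-low macrophages. The neutrophil collagenase Mmp8 was the gene past 2-fold lower.

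Genes of osteoclasts and cell fusion were higher for some members and missing for others. Of 17 genes 13 were tested, and 5 were past 2-fold higher (Dcstamp, Atp6v0d2, Ctsk, Acp5 and Src) and 1, the carbonic anhydrase Car2, lower, with medians of 0.96 and 0.47. Atp6v0d2, a proton pump subunit of osteoclasts, was 251 CPM in WT against 47.6 and 77.9 in the mutant against 12.8, and Acp5 (tartrate-resistant acid phosphatase) 438 against 173 and 291 against 92.6. Other genes of the list, also known from mature osteoclasts, were at or near 0 in Mmp12-high macrophages, namely the calcitonin receptor Calcr at 0 and 0.163 CPM, Oscar at 0.123 and 0, the fusion gene Ocstamp at 1.11 and 0.488, and the integrin subunit Itgb3 at 2.10 and 1.79. These 4 were too scarce to be tested.

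Genes associated with lipid handling were likewise split. Of 20 genes 6 were past 2-fold higher (Spp1, Lpl, the tetraspanins Cd9 and Cd63, the fatty acid transporter Cd36 and the lysosomal acid lipase Lipa) and 2 past 2-fold lower, the lipoprotein gene Apoe and the nuclear receptor gene Pparg, with medians of 0.70 and 0.47. Cd36 was 546 CPM against 132 in WT and 652 against 188 in the mutant. Apoe was 2137 against 5875 and 2761 against 6521. Gpnmb and the receptor Trem2, often named with Spp1 in lipid-laden macrophages, were 426 and 354 CPM against 167 and 239, and 354 and 236 against 205 and 178, and neither was past 2-fold in both libraries. Of 8 tested genes of iron and haem handling 3 were past 2-fold higher, namely the ferritin heavy chain Fth1 (67805 CPM against 30326 in WT and 45101 against 18718 in the mutant), the haem oxygenase Hmox1 (748 against 283 and 572 against 137) and the biliverdin reductase Blvrb, and 2 were lower, the iron exporter Slc40a1 and the transferrin receptor Tfrc.

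Few cytokine genes were past 2-fold. Of 13 tested cytokines only Tnfsf15 was higher in both libraries, with 168 of 581 UMIs in 1 WT cell and 180 of 359 in 1 mutant cell, and 2, Il6 and Il10, were past 2-fold lower, with medians of -0.77 and -0.42. Il1b was 944 CPM in WT against 1943 in Mmp12-low macrophages and 1394 against 1646 in the mutant, with a UMI in 86.2% and 89.2% of Mmp12-high macrophages. Tnf was 103 against 159 and 137 against 169, and Il6 7.65 against 69.2 and 15.6 against 41.8. The interleukin-1 receptor antagonist Il1rn, at 449 and 402 CPM, was above its Mmp12-low level of 271 and 303 in both libraries, as was Il1a at 200 and 238 against 113 and 116, but neither was past 2-fold in both.

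Chemokine genes were past 2-fold in both directions. Of 18 tested, 3 were past 2-fold higher (Cxcl3, Cxcl14 and Ccl9) and 6 past 2-fold lower (Cxcl10, Ccl2, Ccl4, Ccl7, Ccl8 and Ccl12), with medians of -0.90 and -0.54. Ccl9 was 1077 CPM against 323 in WT and 755 against 256 in the mutant, and Cxcl14 218 against 41.3 and 149 against 31.7. The neutrophil chemokine Cxcl2 was 2722 and 2802 CPM in Mmp12-high macrophages and 3178 and 2303 in Mmp12-low ones, and was thus on opposite sides in the libraries.

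Of the inflammatory enzymes and arginine genes 3 of 14 were past 2-fold higher and none lower, with medians of 0.26 and 0.67. The 3 were Inhba, which encodes the activin A subunit (2006 CPM against 557 in WT, 1189 against 290 in the mutant), the arginine transporter Slc7a2 (1033 against 311, 1708 against 575) and the argininosuccinate synthase Ass1 (569 against 219, 365 against 127), which remakes arginine from citrulline. None of the 22 tested genes of glycolysis and hypoxia was past 2-fold in both libraries in either direction, while their medians of 0.36 and 0.46 lay above the all-gene medians. Slc2a1, the glucose transporter GLUT1, was 268 CPM against 140 in WT and 297 against 140 in the mutant.

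Among MHC class II, interferon-stimulated, resident-type and monocyte genes, those past 2-fold were lower in Mmp12-high macrophages, with the exception of Fn1. Of 10 tested MHC class II genes and their partners, 3 were past 2-fold lower (the transactivator Ciita and the co-stimulators Cd86 and Cd40) and none higher, with medians of -0.86 and -0.47, and H2-Aa was 1445 CPM against 2587 in WT and 2483 against 3448 in the mutant. Of 20 interferon-stimulated genes 7 were lower and none higher. Of 14 resident-type genes 12 were lower and none higher. C1qa, a subunit of complement C1q, was 218 against 1095 CPM and 309 against 1223, and Folr2 2.35 against 25.7 and 4.88 against 32.2. Of 13 monocyte genes 8 were lower, among them Ly6c2 (43.6 against 601 and 169 against 678) and the chemokine receptor Ccr2 (21.1 against 205 and 33.5 against 173), and 1 was higher, the fibronectin gene Fn1 (2836 against 1263 and 3062 against 1220).

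Dividing cells were few. Of 13 proliferation genes 12 were past 2-fold lower and none higher, with medians of -3.20 and -2.04, and Mki67 was 15.7 CPM against 128 in WT and 32.8 against 129 in the mutant. At least 2 UMIs of Mki67 and Top2a together were seen in 9.63% of WT and 17.5% of mutant Mmp12-high macrophages, against 20.5% and 24.8% of Mmp12-low ones, which had fewer UMIs per cell. Of 34 receptors tested, 3 were past 2-fold higher (the fungal lectin receptor Clec4n, the oxidised lipoprotein receptor Olr1 and Itgax) and 3 lower (Il1r2, Trem3 and Fcgr1), and of 13 growth and vascular factors 1 higher (Hbegf) and 2 lower (Pdgfc and Thbs1). The 4 genes that the study names for its fibrosis-associated macrophages (Col1a1, Col1a2, Sparc and Acta2) were chosen on these samples and are no independent evidence. Of these, Sparc and Acta2 were past 2-fold lower in both libraries and none was higher, but 1 WT cell held 62.5% of the WT Sparc UMIs, and without the highest doublet scores the WT log2 ratio of Sparc turned to 1.54.

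Transcripts of other cell types were present in Mmp12-high macrophages, and their summed levels differed between the libraries. The 11 neutrophil genes summed to 3775 CPM in WT and 8131 in the mutant (most abundant S100a8 at 1361 and S100a9 at 3283, none at 0), against 23609 and 22494 in Mmp12-low macrophages and 2668 and 17574 in B cells. The 7 erythroid genes summed to 1044 and 6174 CPM (most abundant Hbb-bs at 547 and 2880, none at 0), against 6800 and 16416 in Mmp12-low macrophages and 272 and 51567 in B cells, and 1 WT cell held 72.7% of the WT Hbb-bs UMIs. The 7 mesenchymal genes summed to 317 and 199 CPM (most abundant Col1a1 at 110 and Col3a1 at 71.4, none at 0). They summed to 464 and 512 in Mmp12-low macrophages and 2556 and 131 in B cells. Single cells carried part of these sums. In WT, 1 cell held 78.1% of the Dcn, 59.1% of the Col3a1 and 33.1% of the Col1a1 UMIs. The cell with the most S100a8 held 16.2% of its UMIs in WT and 15.8% in the mutant. The median cell had 226 and 238 CPM of S100a8, and 119 and 249 CPM of Hbb-bs. The mutant library thus carried more haemoglobin and neutrophil transcripts in summed B cells as well. The B cell rule did not leave out neutrophil-type cells, and the deepest cell of each of these mutant sets had 50714 UMIs. The deepest WT B cell had 112787 of the 897376 UMIs of its set. B cells are therefore not a clean control for transcripts outside the cells. The part of such transcripts in the differences below was not tested.

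The other lists were scarcer in Mmp12-high macrophages. Summed levels in WT and mutant were 38.6 and 98.7 CPM for 6 progenitor genes (none at 0, most abundant Prtn3 and Mpo), 14.6 and 40.6 for 6 B cell genes (Ms4a1 at 0 in WT), 74.9 and 103 for 7 T cell genes (none at 0, most abundant Skap1), 28.0 and 37.6 for 9 dendritic genes (Xcr1 at 0 in both and Cd209a in WT, most abundant Clec9a), and 0.494 and 2.11 for 7 genes of mast cells and basophils, 5 of which were at 0 in each library. Those of vascular, nerve, muscle and skeletal cells were 78.1 and 67.6 CPM for 6 endothelial genes (none at 0, most abundant Flt1), 50.4 and 83.1 for 5 Schwann genes (Sox10 at 0 in WT, most abundant Mbp), 56.4 and 11.1 for 6 muscle genes (Pax7 at 0 in both, most abundant Acta2), and 137 and 153 for 6 genes of cartilage and bone (Col2a1 at 0 in the mutant, most abundant Runx2). Of 3 tested dendritic genes Clec9a was past 2-fold higher than in Mmp12-low macrophages, at 16.7 and 13.5 CPM against 6.19 and 4.98, and Siglech past 2-fold lower, at 0.247 and 4.06 CPM against 8.49 and 9.79.

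Between the libraries, Mmp12-high macrophages differed in few genes. Of 6540 genes with at least 200 UMIs over the 384 cells, 187 (2.86%) were at least 2-fold higher in the mutant and 65 (0.994%) at least 2-fold lower, so 74.2% of these calls were higher. The median gene was at 0.19, and rescaling by TMM factors or by median-of-ratios size factors shifted all genes by -0.20 and -0.23 and gave 105 higher with 120 lower (46.7% higher) and 96 higher with 126 lower (43.2% higher), so the excess of higher genes rested on the scaling. Of 58 list genes and genes among the 10 highest or 10 lowest ratios that were past 2-fold here, 25 stayed past it under all 10 alternatives. The leading gene H2-M2 (839 CPM in WT and 370 in the mutant) was also past 2-fold but was not among these 58.

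**Figure D4:**
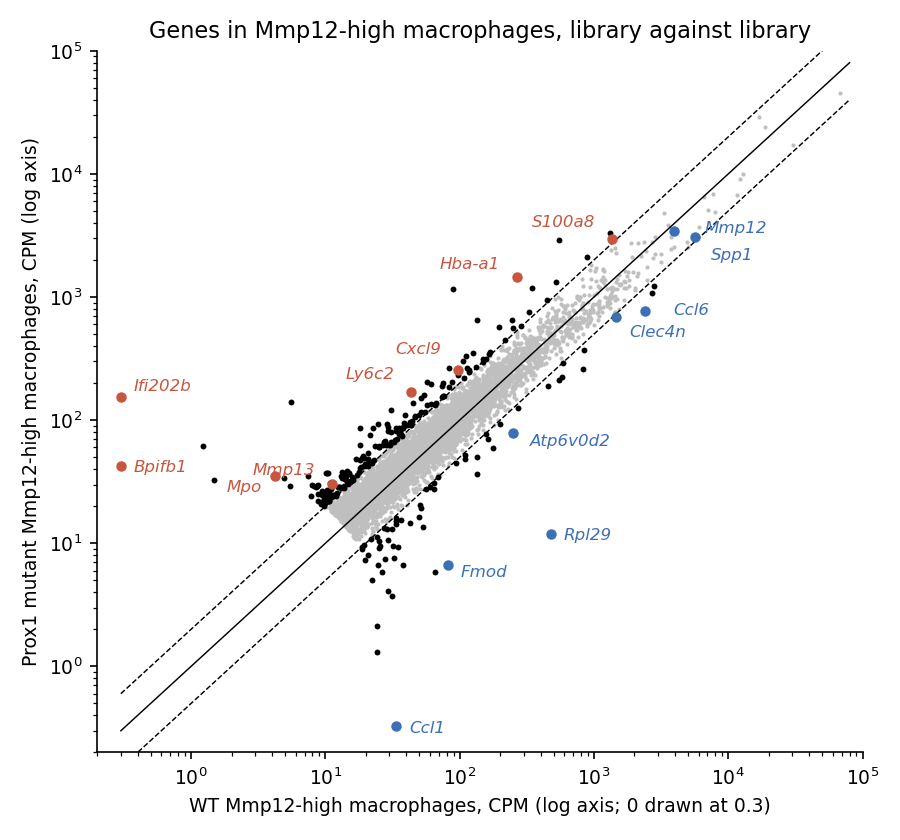
Level in Mmp12-high macrophages of the WT (x axis) and Prox1 mutant library (y axis), both in CPM on log axes, for the 6540 genes with at least 200 UMIs; black points are past 2-fold (187 higher, 65 lower in the mutant), dashed lines mark 2-fold, named genes are in red where higher and blue where lower in the mutant, and a level of 0 is drawn at 0.3. Ifi202b and Bpifb1, with no UMI in WT, and Rpl29 lie far from the diagonal.

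The genes with the largest differences were mostly ones in which other cells of the libraries differed too. Ifi202b, an interferon-inducible gene of the Ifi200 family (chr1:173962568-173982744, minus strand), had no UMI in WT and 945 UMIs in the mutant (154 CPM, in 79.5% of the cells), which is at least 415-fold higher with 3 UMIs set for the WT cells together. It was 0.121 CPM in WT and 218 CPM in mutant Mmp12-low macrophages, and had no UMI in any other kept WT cell against 1535 in mutant ones. Bpifb1, a secreted protein of airway and gland epithelium, went from 0 to 261 UMIs (42.4 CPM, at least 115-fold higher), while the mutant cells without Csf1r and Cd68 together held 121584 Bpifb1 UMIs (3346 CPM) and the corresponding WT cells 8. Rpl29, a ribosomal protein gene with many processed copies in the genome, was 481 CPM in WT but 11.9 CPM in the mutant, and 576 and 14.7 CPM in the kept cells outside the macrophages. Gm12166 was 24.3 and 1.30 CPM, and 10.9 and 0.936 CPM in those other cells.

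Chil1 and Adgb differed more in Mmp12-high macrophages than elsewhere. Chil1, a chitinase-like protein of macrophages and neutrophils, was 5.56 CPM in WT but 141 CPM in the mutant, seen in 7.80% and 74.1% of the cells, while Mmp12-low macrophages had 29.2 and 98.4 CPM and neutrophil-type cells 235 and 234 CPM. Adgb (androglobin) was 1.23 and 61.3 CPM, against 2.91 and 29.7 in Mmp12-low macrophages and 0.999 and 5.26 in the kept cells outside the macrophages. The difference between these cell sets was not tested, there being 1 library each.

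The rest of the 10 highest genes were Bank1, Igkc, Hba-a1, Hba-a2, Mpo and Hist1h2ap, known from B cells, erythroid cells, progenitors and dividing cells. Of the Mpo UMIs in the mutant 182 of 218 were in 1 cell.

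Several of the genes lowest in the mutant were largely carried by single WT cells. All 274 Ccl1 UMIs in WT were in 1 cell. A different WT cell, with 112677 UMIs the deepest of the WT Mmp12-high macrophages and with exactly 10 Mmp12, 6 Csf1r and 3 Cd68 UMIs, held 98.5% of the Fmod UMIs of these cells in WT, 98.0% of Ecrg4, 86.5% of Mgp, 78.1% of Dcn, 69.4% of Prkg1 and 67.9% of Col24a1, genes of fibroblasts, cartilage and other stroma. Without it the log2 difference of Fmod turned from -3.61 to 2.41, that of Ecrg4 from -2.51 to 3.15 and that of Dcn from -1.55 to 0.62. Mgp fell under 2-fold without this cell. Col24a1 and Prkg1 stayed past 2-fold without it and in all 10 alternatives, as did Rpl29, Gm12166, Penk and Cstdc4. In the mutant 36 of 41 Fmod UMIs and 40 of 41 Ecrg4 UMIs were in 1 cell too, so the turned values of these 2 genes are not a mutant excess across cells. Penk (29.4 and 4.06 CPM) and Cstdc4 (26.2 and 5.85 CPM) completed the list, and 1 WT cell held 67 of 238 Penk UMIs and 1 held 104 of 212 Cstdc4 UMIs.

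By function, monocyte genes were the list with the most genes past 2-fold higher in the mutant, apart from those of other lineages, though not with the largest share. Of 13 tested, 4 were higher, Ly6c2, Chil3 and Ms4a4c among them, and none was lower, with a median of 0.43 against 0.19 over all genes. Of 5 proliferation genes 2 were higher, and of all tested genes 2.86%. Ly6c2, a surface protein of inflammatory monocytes, was 43.6 CPM in WT but 169 CPM in the mutant (log2 1.96, interval 1.78 to 2.14), with at least 3 UMIs in 12.8% and 33.7% of Mmp12-high macrophages. In B cells it was 14.5 and 121 CPM and in Mmp12-low macrophages 601 and 678 CPM, and what part transcripts outside the cells had in its difference was not tested. Chil3 and Ms4a4c were each under 2-fold in 3 of the 10 alternatives, median-of-ratios size factors among them. Of 10 resident-type genes Maf, Cx3cr1 and Stab1 were higher and none lower, and only the transcription factor Maf, at 29.1 and 87.3 CPM, stayed past 2-fold in all 10 alternatives.

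The lists of secreted mediators gave few genes past 2-fold between the libraries. Of 14 chemokines, Cxcl9 (96.7 and 254 CPM, which draws activated T cells) and Ccl5 (326 and 755 CPM) were higher in the mutant and Ccl6 was lower (2379 and 775 CPM, log2 -1.62). Of 9 cytokines none was past 2-fold, and Il1b was 944 and 1394 CPM (log2 0.56). Of 20 proteases and inhibitors Mmp13 and Timp3 were higher and none lower, and of 14 inflammatory enzymes the acute-phase gene Saa3 was higher (524 and 1316 CPM). Cxcl9 and Timp3 were under 2-fold once cells with Col1a1, Cd79a or Retnlg transcripts were left out, Saa3 with cells thinned to 5000 UMIs and Ccl5 with median-of-ratios size factors.

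The fusion, lipid and antigen presentation lists had few genes past 2-fold between the libraries. Of 12 osteoclast and fusion genes, Atp6v0d2 was lower in the mutant (251 and 77.9 CPM, log2 -1.69) and none higher, and a UMI of it was seen in 72.0% of WT and 38.6% of mutant Mmp12-high macrophages and in no B cell. Thinned to 5000 UMIs the shares were 49.3% (42.5–56.2%) and 21.5% (15.4–28.6%). Of 18 lipid genes none was past 2-fold and their median was -0.39 against 0.19 over all genes, with Fabp5 at 1544 and 806 CPM and Cd63 at 2026 and 1136 CPM. Of 10 MHC class II genes only Ciita (13.9 and 33.2 CPM) was past 2-fold higher, though not with cells thinned to 5000 UMIs, and their median was 0.58, with H2-Eb1, a class II chain, at 944 and 1835 CPM.

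In the remaining lists, apart from those of other lineages, the calls were few and each was lost in some alternatives. Hk2 was higher in the mutant among 22 glycolysis genes and Gbp5 among 13 interferon-stimulated genes, Pdgfb was higher and Areg lower among 9 growth factors, and none of 6 iron genes was past 2-fold. Of 33 receptors Il1r2, Marco and Fpr2 were higher and Clec4n lower (1469 and 694 CPM), and of 5 proliferation genes Mki67 and Top2a were higher. Marco, Fpr2 and Mki67 were each under 2-fold in 6 of the 10 alternatives, Gbp5 and Areg in 3, Hk2 and Pdgfb in 2, and Il1r2, Clec4n and Top2a in 1. Among genes of other lineages 6 of 9 neutrophil genes, 4 of 4 haemoglobin genes and the progenitor genes Mpo and Elane were higher in the mutant, and Dcn, Col1a1 and Acta2 lower. Col1a1 was under 2-fold in 7 of the 10 alternatives, Dcn in 6, Elane in 4, Acta2 in 2 and Mpo in 1, where its log2 difference was 0.45, and the signs of Dcn, Elane and Acta2 turned in some of them. Of the neutrophil genes Ngp and Lcn2 were under 2-fold in 4 of the 10, S100a8 in 3 and Csf3r in 1, and S100a9, Ltf and the haemoglobin genes in none.

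Nos2, the inducible nitric oxide synthase and a sign of inflammatory activation, was common in Mmp12-high macrophages. It was 255 CPM in WT and 364 in the mutant, against 173 and 223 in Mmp12-low macrophages. Thinned to 5000 UMIs (217 and 163 cells, with 1 and 3 shallower cells left out), 31.3% of WT (25.2–38.0%) and 47.9% of mutant cells (40.0–55.8%) had a Nos2 UMI. The intervals overlapped at 2000 UMIs per cell (17.5–29.1% and 26.8–41.7%) and at 10000 (30.7–44.2% and 40.7–57.3%). In thinned B cells (55 and 54 cells) Nos2 was seen in 0% and 3.70%. Without thinning the shares were 45.4% and 64.5%.

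Cells with and without a Nos2 UMI, counted from all UMIs, carried different amounts of other transcripts. There were 99 WT and 107 mutant cells with Nos2 and 119 and 59 without it, and the median depths of these sets ran from 31437 to 35567 UMIs. Spp1 was higher without Nos2, at 7559 CPM against 3286 with it in WT and 4636 against 2281 in the mutant. Lpl and Gpnmb lay the same way, Lpl at 1417 against 793 CPM in WT and 1800 against 1173 in the mutant, and Gpnmb at 583 against 239 and 429 against 317. Cxcl9 lay the other way, at 12.7 CPM without Nos2 against 196 with it in WT and 57.0 against 353 in the mutant. Il1b followed Cxcl9, at 743 against 1183 CPM and 926 against 1628. Of haemoglobin transcripts, Hbb-bs was 1327 CPM without Nos2 against 3659 with it in the mutant, where 1 cell held 20.9% of its UMIs, and its part in these differences was not tested. In WT, 1 cell held 3219 of the 3667 Hbb-bs UMIs of the cells with Nos2, so no direction is given. The neutrophil gene S100a8 was on opposite sides, at 882 against 1929 CPM in WT and 4221 against 2324 in the mutant.

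**Figure D5:**
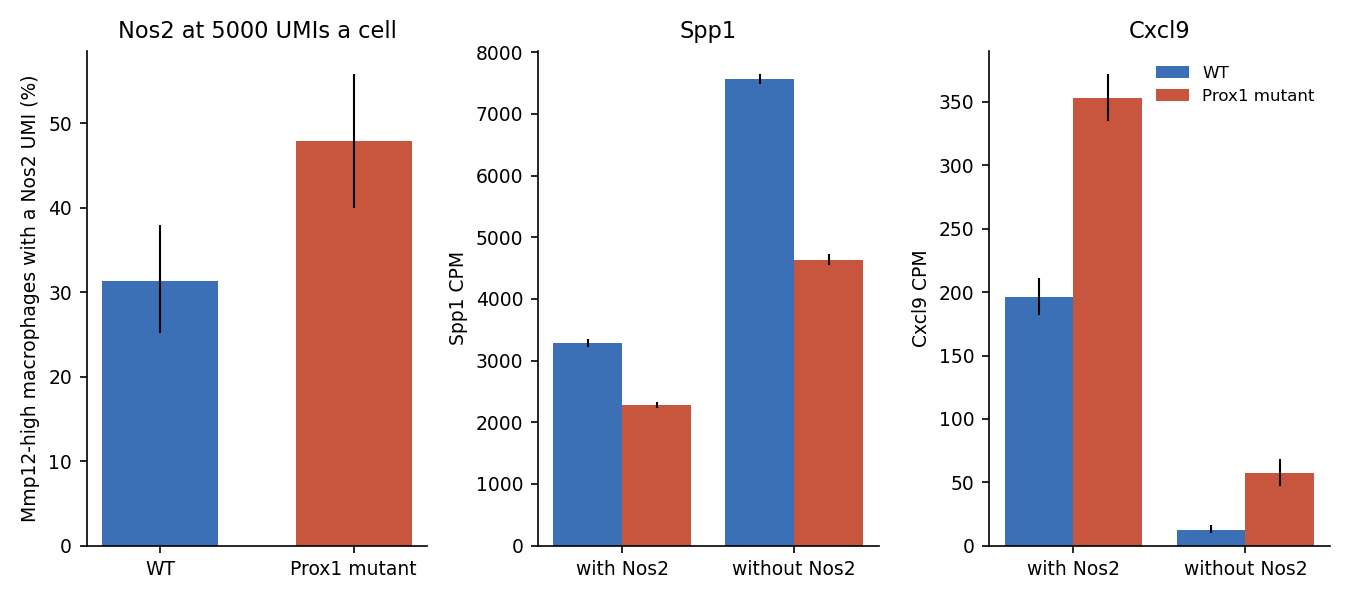
Left, percent of Mmp12-high macrophages with a Nos2 UMI at 5000 UMIs per cell in each library, with Clopper-Pearson bars; middle and right, Spp1 and Cxcl9 in CPM in cells with and without a Nos2 UMI from all UMIs, with Poisson bars, in blue for WT and red for the Prox1 mutant. Spp1 is higher in cells without Nos2 (7559 against 3286 CPM in WT) and Cxcl9 in those with it (196 against 12.7 CPM in WT).

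Other transcripts varied with the amount of Mmp12 among the cells. The cells of each library were divided into 3 groups by Mmp12 CPM (73, 73 and 72 in WT and 56, 55 and 55 in the mutant, with median depths of 27594 to 37083 UMIs). From the lowest to the highest group Spp1 went from 2820 through 5871 to 8458 CPM in WT and from 879 through 3924 to 4770 in the mutant. Lpl went from 689 through 1026 to 1741 and from 751 through 1494 to 1979, and Dcstamp from 421 through 565 to 764 and from 269 through 546 to 645. Ctsk was highest in the highest group, at 182 against 58.6 and 49.9 CPM in WT and 198 against 67.5 and 60.2 in the mutant.

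Cxcl9, C1qa and Ccr2 ran in the opposite order. Cxcl9 was 216, 36.9 and 25.1 CPM from the lowest to the highest Mmp12 group in WT and 466, 225 and 47.1 in the mutant. C1qa was 344, 217 and 78.5 and 479, 306 and 126, and Ccr2 34.9, 21.2 and 5.49 and 53.3, 27.4 and 16.8. Nos2 was highest in the lowest Mmp12 group of both libraries, at 355 against 199 and 203 CPM and 517 against 341 and 217. The low groups hold the cells nearest the threshold, and the groups share their library, so these orders are a description of each library.

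Some Mmp12-high macrophages also carried transcripts that define other macrophage classes. At least 3 UMIs of Cxcl9 were seen in 14.7% of WT and 27.1% of mutant cells and in 16.4% and 26.4% of the shallower Mmp12-low macrophages, while its level was 96.7 and 254 CPM against 211 and 454. At least 3 UMIs of Folr2 were seen in 1 WT and 3 mutant cells, and the 3 C1q chains summed to at least 3 UMIs in 62.4% and 63.3%. Haemoglobin transcripts of at least 50 UMIs were seen in 0.917% and 13.3% of Mmp12-high and in 2.28% and 20.6% of Mmp12-low macrophages. Col1a1 of at least 10 UMIs was seen in 4 cells of each library.

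Prox1, the gene mutated in the study and a transcription factor of lymphatic endothelium, had 6 UMIs in WT Mmp12-high macrophages (0.741 CPM, Poisson interval 0.272–1.61) and none in mutant ones, where 3 UMIs, the limit set for a count of 0, would be 0.488 CPM and the Poisson upper limit was 0.60 CPM. Over all kept cells WT had 563 Prox1 UMIs (11.6 CPM) and the mutant 315 (5.80 CPM), in the direction of the labels. The UMIs counted at the 3′ end of Prox1 need not lie in the mutated part of the gene, so this level does not check the genotype.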

How the data were processed

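Single-cell RNA-seq libraries were made from digested TMJ tissue of 1 WT and 1 Prox1 mutant group after CFA. Per the labels, the authors deposited raw UMI counts per gene and barcode, made with Cell Ranger 7.0.1 on mm10 (submitters' processing notes). The labels name a 10x 3′ v2 kit and the study's methods a v3.1 kit with another digestion, and which applies is not known. Intron counting and doublet removal are not given in the sources used here, nor are the number of pooled animals and the time after CFA.

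The filter of the study's methods, 500 or more genes per barcode and a mitochondrial share below 10%, left 4352 WT and 5757 mutant cells with 48366846 and 54330221 UMIs. The UMIs of the 218 and 166 Mmp12-high macrophages were summed per library and scaled to CPM. Genes with at least 200 UMIs were called past 2-fold at a log2 ratio of at least 1 or at most -1, and 0 UMIs were set to 3 for a bound. Intervals are 95% Poisson, Clopper-Pearson, Newcombe or conditional binomial ones and cover counting error only. Comparison sets were defined by UMI minimums. Folr2-positive macrophages and monocytes are subsets of the Mmp12-low macrophages. Neutrophil-type cells had Retnlg of at least 3 with at least 50 UMIs of S100a8 plus S100a9. B cells had Cd79a of at least 3. Neutrophil-type cells and B cells both lacked Csf1r, and their rules did not exclude each other. Doublets were not removed. The automatic scrublet step gave 0 calls among 5469 and 0 among 7603 barcodes. Such a 0 is also recorded when no threshold is found, so it does not show that doublets were absent. In an alternative the highest scores, 239 and 462 barcodes, were left out.

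Named genes were the rule genes, the markers, list genes beside their list count, the 10 highest and 10 lowest ratios between libraries, and the 15 leading genes against Mmp12-low macrophages in each direction. The members and lists were chosen with earlier results of these data known. Some listed symbols (Mx1, Sepp1 and Clec7a) matched no gene name in the files. A few genes of the lists are counted but not reported here by name. Alternatives changed the filters, the rule, the scaling, the depth and single cells. The arithmetic of the fold calls was checked on simulated counts, which says nothing about differences between conditions. No count column of another sample was present (0). Tools were R 4.3.3, edgeR 4.0.16, DESeq2 1.42.0 (scaling factors only), Python 3.11.15, scanpy 1.11.5, scipy 1.17.1 and numpy 2.4.6.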

Additional observations from a re-analysis of the deposited data

Results flagged for a closer look

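Fmod, the matrix proteoglycan fibromodulin, was higher in Mmp12-high than in Mmp12-low macrophages in WT (log2 3.14) and lower in the mutant (-1.56), and Col24a1, a collagen gene, likewise (3.47 in WT and -1.08 in the mutant). In WT, 98.5% of the Fmod and 67.9% of the Col24a1 UMIs of Mmp12-high macrophages were in 1 cell. Adgb lay the other way, at -1.24 in WT and 1.04 in the mutant, and rested on 10 UMIs in the WT Mmp12-high macrophages against 377 in the mutant. The differences between the libraries in these ratios were not tested.

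Outside the filter, 7 WT barcodes and 1 mutant barcode met the rule's UMI minimums but had 10% or more mitochondrial UMIs. The 7 WT barcodes, with a median of 17101 UMIs and of 16.0% mitochondrial UMIs, had 4171 CPM of Mmp12, 1520 of Spp1, 516 of Dcstamp and 410 of Itgax.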

How the results depend on the processing

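The difference in share between the libraries kept its direction in every setting run. The WT share was 4.36% with minimums of 200 genes and below 20% mitochondrial, 8.41% after thinning and 33.2% of cells with Csf1r and Cd68. The mutant share was 2.28% with that looser filter and also with at least 20 Mmp12 UMIs, 4.01% with 1000 genes and below 5% mitochondrial, 3.35% with at least 5 Mmp12 UMIs, 6.42% after thinning and 20.7% of cells with Csf1r and Cd68, where the difference was -12.6 points. Genes past 2-fold between the libraries numbered 504 higher and 195 lower in the mutant with a minimum of 50 UMIs, 54 and 22 with 1000, 2783 and 1855 with none, 105 and 120 with TMM factors, 96 and 126 with median-of-ratios size factors, and 330 and 128 with cells thinned to 5000 UMIs. The lower genes numbered 38 with at least 20 Mmp12 UMIs, and also 38 without cells carrying Col1a1, Cd79a or Retnlg. Against Mmp12-low macrophages, 322 genes were higher with TMM factors, 333 higher and 404 lower with median-of-ratios size factors, 121 higher and 215 lower with a minimum of 1000 UMIs, 750 higher and 1610 lower with none, and 1172 lower with 50, and 333 were higher against Folr2-positive macrophages and 334 against monocytes. With no minimum, a count of 0 set to 3 can stand above a smaller count in the other set, so some genes were called in the wrong direction. Oscar, with 1 UMI in WT and 0 in the mutant, had a log2 difference of 1.98. The counts with no minimum are therefore not to be read by direction. The share of genes called at each minimum is not given here, and the cause of the changed counts was not tested.

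At 2000 UMIs per cell the shares in WT and mutant were 22.9% and 33.9% for Nos2. Between the libraries, log2 differences reversed for Acta2 (0.27) without the highest doublet scores, for Elane (-1.38) and Dcn (0.013) without cells carrying Col1a1, Cd79a or Retnlg, for Dcn (0.68), Fmod (2.47) and Ecrg4 (3.51) with at least 20 Mmp12 UMIs, and for Dcn (0.62), Fmod (2.41) and Ecrg4 (3.15) without the WT cell with the most Fmod. Of the mutant UMIs 36 of 41 for Fmod and 40 of 41 for Ecrg4 were in 1 cell. Without the highest doublet scores, the WT ratios of Mmp12-high over Mmp12-low macrophages were 1.54 for Sparc, 1.56 for Col3a1 and 1.06 for Lum, the reverse of their sign otherwise. The settings that left out cells by Col1a1, Cd79a, Retnlg or Fmod, and both rescalings against Mmp12-low macrophages, were chosen after seeing the data. Ccl1 with at least 20 Mmp12 UMIs or without its top cells, and Ecrg4 without cells carrying Col1a1, Cd79a or Retnlg, had no value because each library held 3 or fewer UMIs. No paired analysis was possible because each group was 1 library. Genes with few UMIs, such as Mmp13 and Ocstamp, are limited by depth in single cells.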

Other observations

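Set against Folr2-positive macrophages of the same library (24 WT and 35 mutant cells), Mmp12-high macrophages had less of the monocyte chemokines and of Mrc1. Ccl8 was 17.9 and 34.8 CPM in Mmp12-high macrophages of WT and mutant against 2176 and 1698 in Folr2-positive ones, Ccl7 7.04 and 11.1 against 1298 and 703, and Mrc1 8.76 and 16.3 against 2090 and 802. Lpl was 1132 and 1382 CPM against 28.5 and 367. Spp1, at 5605 and 3067 CPM, was above the 209 and 1595 CPM of Folr2-positive macrophages.

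Rpl29 and Ifi202b separated the libraries in cells of other kinds too. Rpl29 was 988 CPM in WT and 16.0 in mutant B cells and 323 and 4.10 in neutrophil-type cells. Ifi202b was at 0 UMIs in both of these cell sets in WT and at 13.6 and 13.8 CPM in the mutant.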
